A study of Mus musculus with 9 samples.

Results

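Genes for chemokines, interleukins, the tumour necrosis factor (TNF) family and their receptors were read out of a table of RNA sequencing counts from mouse kidney tumours and normal kidney cortex. A gene was a member when its symbol began with Ccl, Ccr, Cxcl, Cxcr, Cx3c or Xcr, with Il and a digit, or with Tnf. The rule found 110 of the 14052 genes in the table. Of these, 25 had no read in any library, 85 had reads, and 53 had enough for the test, which covered 7020 genes. The tumour group was 5 tumour areas (L4, R2, R3, R4 and R5) from kidneys of mice that carried Ksp-Cre together with loxP-flanked (floxed, F/F) alleles of Vhl and of Pbrm1. Vhl encodes the protein that marks hypoxia-inducible factors for destruction, and Pbrm1 encodes a subunit of a chromatin remodelling complex. Ksp is the promoter of Cdh16, which is active in kidney tubule epithelium, so Cre is driven in those cells. The normal group was 4 areas (L1, L2, R1 and R2) of kidney cortex from wild-type mice. All mice ate a normal diet and were about 1 year old. The tumour mice had a mixed C57BL/6, BALB/c and 129 background and the normal mice were C57BL/6, so genotype and strain cannot be told apart. The descriptions of each group carry a single number, so each group may be 1 animal, in which case p-values measure only how much areas of an animal vary. What the letters L and R stand for is not given.

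Chemokines are small secreted proteins that draw leukocytes along a gradient by binding receptors coupled to G proteins. Interleukins are secreted signals between leukocytes, and between leukocytes and epithelium, and most act through receptor chains that pair on the cell surface and start JAK kinases or the adaptor Myd88. TNF family ligands bind receptors that recruit TRAF or death domain adaptors and lead to NF-kB activity, survival or cell death. In the kidney, tubule cells make some of these signals when stressed or injured, and resident macrophages and infiltrating leukocytes make many more.

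Each library held 5143527 to 8250261 counted reads. On the scale used here, CPM (counts scaled by the library total times its TMM factor), 3 counts, the limit that a 0 allows, came to 0.409 to 0.649. As a check of the labels, Vhl stood at 45.1 to 75.7 CPM in tumour and 97.7 to 108 CPM in normal areas (log2 difference -0.79 ± 0.13, adjusted p = 0.000248 in edgeR). Pbrm1 stood at 106 to 162 against 141 to 164 CPM and did not pass the test (adjusted p = 0.142 in edgeR). Counts per gene hold no exon values, so neither number measures the deletion itself. The summed level of 11 proximal tubule markers was 26091 to 47870 CPM in tumour and 59380 to 61309 CPM in normal areas, so tubule RNA was present in both groups. Markers shared by all leukocytes summed to 447 to 964 CPM in tumour and 56.0 to 61.3 CPM in normal areas, with 5 of 6 markers in the table detected and Ptprc, which encodes the common leukocyte antigen CD45, at 0. In bulk tissue, more cells of a type and more RNA per cell cannot be told apart. How far leukocyte RNA carries the differences that follow was not tested. Values are given in the order L4, R2, R3, R4, R5 for tumour and L1, L2, R1, R2 for normal areas. Differences are tumour minus normal on the log2 scale with their standard error (n = 5 and 4 areas), from edgeR's quasi-likelihood test, and adjusted p is Benjamini-Hochberg over all 7020 genes, with calls under 0.05.

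Most of the tested cytokine genes were higher in tumour. Of 53 tested members, 44 were called higher, 6 lower and 3 were not called. Over all tested genes, 39.3% were called higher and 35.3% lower, or 74.6% in either direction, so a call as such was common in this comparison. Among the members the share called higher was 83.0% and the share called lower 11.3%. At least a 2-fold difference was seen in 36 of the genes called higher and 3 of those called lower. Over all 7020 tested genes, 1217 called higher and 883 called lower differed by as much. The median log2 difference was 2.32 over the tested members and 0.06 over all tested genes. In 38 members every tumour area lay above every normal area, and in 6 every tumour area lay below. These arrangements were found in 34.8% and 33.0% of all tested genes. Passing the filter on low counts itself favours higher calls: 11 of the 53 members had under 10 counts in every normal area and entered the test through the tumour areas, and all 11 were called higher. Of the 322 such genes among all tested genes, 97.2% were called higher. Of the other 42 members, 33 were called higher (78.6%) and 6 lower, beside 36.5% called higher among all tested genes with at least 10 counts in some normal area. By role, 15 of 16 tested chemokine ligands were higher and none lower. Higher calls were made for 4 of 5 interleukins and antagonists, 13 of 17 interleukin receptor chains, both TNF ligands, 8 of 10 TNF receptors and 2 of 3 TNF-induced proteins. All 6 lower calls were among receptors (Il5ra, Il1rap, Il17rd, Il13ra1, Tnfrsf21) and TNF-induced proteins (Tnfaip8). The library kit did not keep strand, and 21 of the 53 tested members overlap another gene in a later annotation. Among those named here with an opposite-strand neighbour are Cxcl10 (Art3), Cxcl16 (Zmynd15), Il1b (Il1bos), Il18 (Bco2), Il18bp (Numa1), Il27ra (Palm3) and Il17rb (Actr8), whose reads cannot be told apart from the neighbour's where they overlap.

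**Figure D1:**
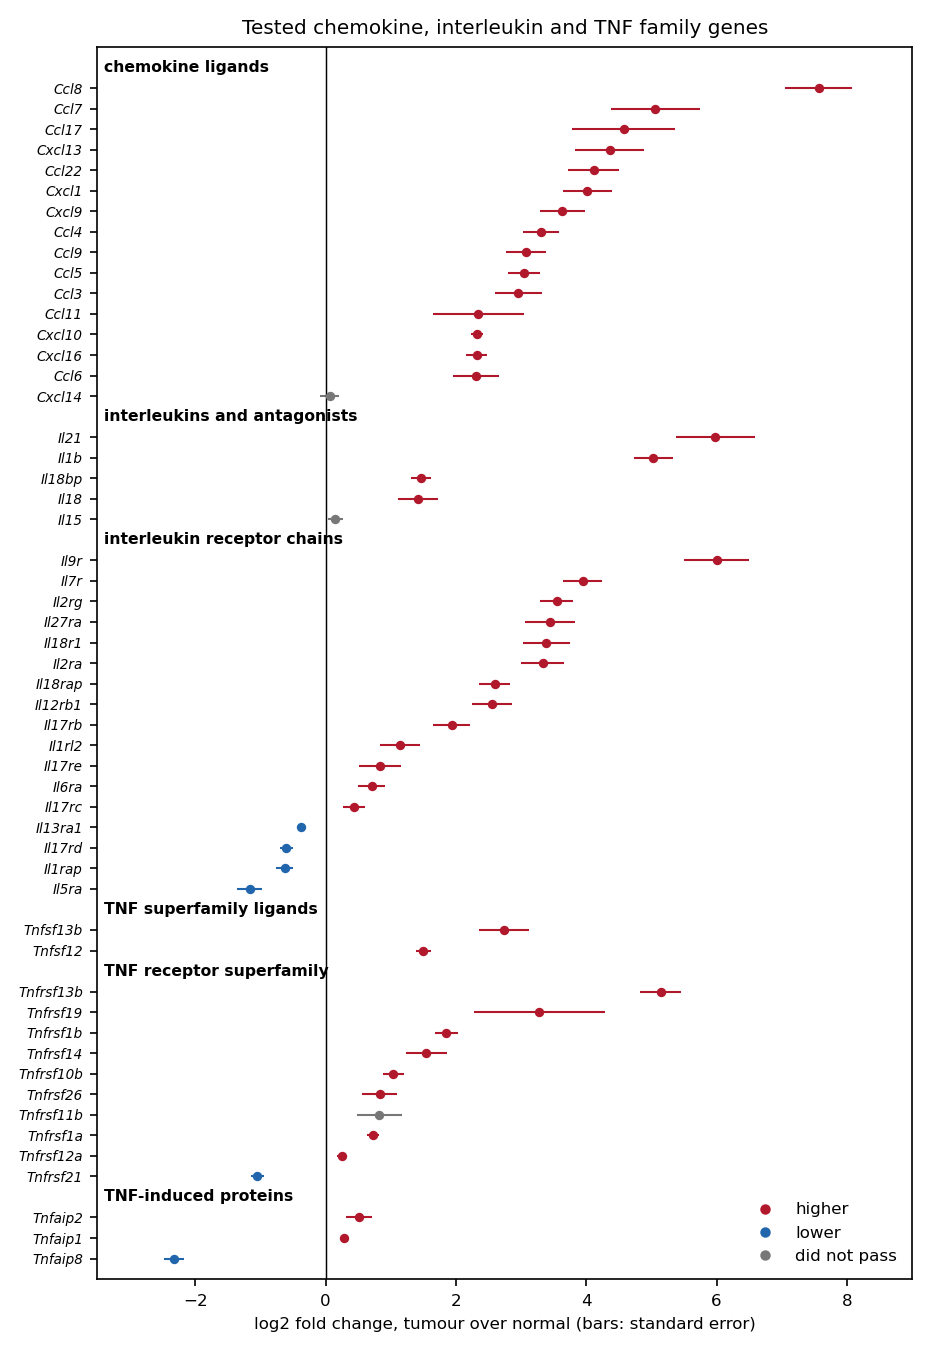
Log2 difference of tumour minus normal areas for the 53 tested members, grouped by role, with bars of 1 standard error from the edgeR fit. Red points are called higher, blue lower, and grey did not pass; chemokine ligands lie to the right with the largest value at 7.57 for Ccl8, and the lower genes run down to -2.33 for Tnfaip8.

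The CC chemokine ligands were all higher in tumour, 10 of the 10 tested. Of these, Ccl3, Ccl4, Ccl7, Ccl8, Ccl17 and Ccl22 had under 10 counts in every normal area and entered the test through the tumour areas. Among all tested genes that did so, 97.2% were called higher, so the count for these ligands is no separate result. Ccl8, a relative of the monocyte chemoattractants, showed the largest difference of all 53 tested members. Its levels were 247, 129, 76.6, 102 and 168 CPM in the tumour areas and 0.865, 0.546, 0.664 and 1.01 CPM in the normal areas (7.57 ± 0.51, adjusted p = 5.86e-07 in edgeR). The lowest tumour area, R3, stood far above the highest normal area. Ccl7, a ligand of Ccr2 that draws monocytes, was measured at 17, 4.7, 7.99, 4.36 and 12.5 CPM in tumour and 0, 0.273, 0.498 and 0.202 CPM in normal areas (5.06 ± 0.68, adjusted p = 6.72e-05). Normal levels were at or under 3 counts in every area, and L4 and R5 were the high tumour areas; without them the difference was 4.32. Ccl17 and Ccl22 are both ligands of Ccr4, a receptor carried by regulatory and type II helper T cells. Ccl17 came to 8.91, 3.69, 4.72, 0.871 and 4.87 CPM in tumour and 0.216, 0.136, 0.166 and 0.202 CPM in normal areas (4.57 ± 0.79, adjusted p = 0.000378). Ccl22 came to 35.1, 20.6, 13.3, 14.1 and 24.8 CPM against 1.73, 1.09, 0.83 and 1.42 CPM (4.11 ± 0.39, adjusted p = 5.17e-06). R4 was the lowest tumour area for Ccl17, yet its value was above all 4 normal values of that gene. Without L4 and R5 the Ccl17 difference was 3.94. The groups did not overlap for Ccl22 either.

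The inflammatory chemokines Ccl3, Ccl4 and Ccl5 and the myeloid chemokines Ccl6 and Ccl9 rose. Ccl4 was measured at 6.54, 6.54, 5.26, 3.78 and 6.85 CPM in tumour and 0.649, 0.546, 0.664 and 0.405 CPM in normal areas (3.31 ± 0.28, adjusted p = 2.57e-06 in edgeR). Its 5 tumour values all lay far above the normal ones. Ccl3 ranged over 2.18 to 5.78 CPM in tumour and 0.332 to 0.607 CPM in normal areas (2.96 ± 0.37). Ccl5, a product of activated T cells, ranged over 26.4 to 56.4 against 4.5 to 6.28 CPM (3.05 ± 0.24). Ccl9 (38 to 101 against 6.64 to 8.3 CPM, 3.08 ± 0.30) and Ccl6 (6.83 to 22.1 against 1.62 to 3.55 CPM, 2.31 ± 0.36) were likewise separated without overlap. Ccl11, the eotaxin that draws eosinophils, was called with overlapping groups: 1.31 to 13.8 CPM in tumour, where L4 was high and R4 low, against 0.433 to 1.5 CPM (2.35 ± 0.69, adjusted p = 0.0105). Without L4 the Ccl11 difference was 1.62, and without L4 and R5 it was 1.52. Of 9 tested macrophage and dendritic cell markers, 6 were higher, and Mertk (-0.27 ± 0.12), Zbtb46 (-0.17 ± 0.13) and Csf1r (0.32 ± 0.16) did not pass. Itgam, among those higher, had under 10 counts in every normal area. The list summed to 827 to 2032 CPM in tumour and 149.99 to 184 CPM in normal areas, in tumour areas mostly from Lyz2 (702 to 1813 against 61.5 to 76.6 CPM), with Fcgr3 at 0. Markers of eosinophils, mast cells and basophils summed to 25.0 to 68.8 against 8.22 to 13.3 CPM, with Siglecf at 0 and Epx at most at 0.166 CPM. Prg2 (17.1 to 51.9 against 0 to 0.166 CPM) made up most of the tumour sum and was called higher, and Il5ra, itself a cytokine receptor described further on, made up most of the normal sum and was called lower. The part of these cells in the chemokine values was not tested. The homeostatic ligands Ccl19, Ccl21a and Ccl21b of Ccr7, and Ccl12 and Ccl20, had no read in any library, and Ccl1 and Ccl25 had at most 1 per group.

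**Figure D2:**
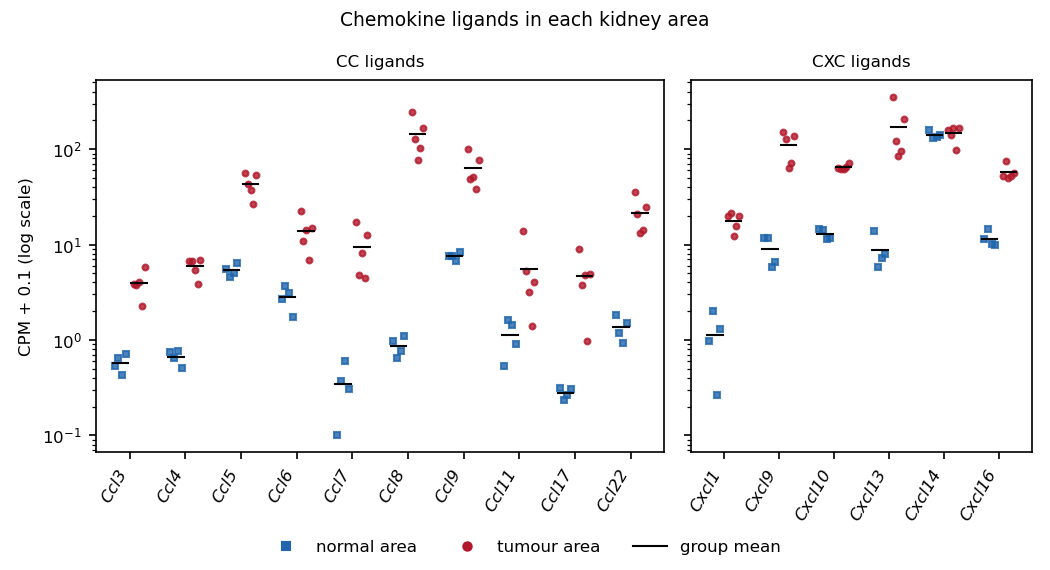
CPM plus 0.1 on a log axis of the 16 tested chemokine ligand genes in the 5 tumour areas (circles) and 4 normal areas (squares), 1 point per area, with black bars at group means. The ligands called higher are separated between the groups except Ccl11, whose tumour area R4 falls among the normal areas. Cxcl14, which was not called, overlaps.

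Among CXC ligands, the interferon-induced ligands of Cxcr3, the lymphocyte-attracting Cxcl13 and Cxcl16, and the neutrophil-attracting Cxcl1 were higher, while Cxcl14 was not called. Cxcl13, which draws B cells into follicles through Cxcr5, stood at 353, 121, 83.9, 96.7 and 207 CPM in tumour and 13.8, 5.73, 7.14 and 7.9 CPM in normal areas (4.36 ± 0.53, adjusted p = 2.96e-05 in edgeR). L4 was 4.21-fold above R3, and without L4 and R5 the difference was 3.59. B and plasma cell markers summed to 962 to 2157 CPM in tumour and 452 to 479 CPM in normal areas, with all 8 markers in the table detected. Xbp1, which tubules also express, made up nearly all of the normal sum (619 to 1202 against 442 to 472 CPM). All 7 tested markers were higher, with a median log2 difference of 5.18, among them Mzb1 (276 to 751 against 2.02 to 3.82 CPM, 7.36 ± 0.39). Of the 7, Pax5, Blk, Ms4a1 and Cd79b had under 10 counts in every normal area and entered the test through the tumour areas. Over all tested genes, 39.3% were called higher, and 97.2% of those that entered in this way. The part of B and plasma cells in the Cxcl13 value was not tested. Cxcl9, which draws activated T cells, stood at 150.5, 129, 63.9, 72.3 and 138 CPM in tumour and 11.7, 11.7, 5.65 and 6.48 CPM in normal areas (3.63 ± 0.35, adjusted p = 5.64e-06). R3 and R4 were its low tumour areas, well under L4 and still above all normal areas. Cxcl10, a ligand of the same receptor, behaved more evenly: its tumour areas spanned 61.4 to 71.4 CPM and its normal areas 11.5 to 14.5 CPM (2.33 ± 0.10, adjusted p = 3.95e-08 in edgeR). Cxcl16, a membrane-bound ligand of Cxcr6, ranged over 49.9 to 74.8 CPM against 9.72 to 14.3 CPM (2.32 ± 0.16), with R2 the high tumour area. Cxcl1, the ligand of Cxcr2 on neutrophils, was measured at 19.8, 21.3, 12.2, 15.5 and 19.8 CPM in tumour and 0.865, 1.91, 0.166 and 1.21 CPM in normal areas. All tumour areas lay far above all normal areas (4.02 ± 0.38, adjusted p = 5.15e-06). Neutrophil markers had low sums in both groups, 1.98 to 4.18 CPM in tumour and 0.409 to 1.66 CPM in normal areas, without overlap. Only 8 of the 13 listed were in the table, none was tested, and Mpo and Camp were at 0. Cxcl14, a chemokine that many epithelia make constitutively, stood at 160.5, 141, 168, 97 and 167 CPM in tumour and 157, 129.8, 135 and 140.5 CPM in normal areas (0.06 ± 0.15, adjusted p = 0.709). L4, R3 and R5 lay just above the normal range, R2 within it and R4 below it.

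Promoter stretches are shown for Cxcl1, Cxcl9 and Cxcl10, the CXC ligands called higher whose promoter held a match to a motif marked below. Holding a match was thus a condition for being shown, so the matches in these genes are no finding. They were chosen with their values known and are textbook targets of NF-kB or of the interferon response. The stretches come from RefSeq on GRCm38.p6 and are written 5′ to 3′ on the strand of the gene. Capitals mark matches to the NF-kB consensus or to the interferon regulatory factor (IRF) motif GAAANNGAA on either strand.
Cxcl1 (chr5:90891154-90891204, plus strand): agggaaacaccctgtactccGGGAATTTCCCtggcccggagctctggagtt
Cxcl9 (chr5:92328226-92328274, minus strand): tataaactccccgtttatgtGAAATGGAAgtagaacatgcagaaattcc
Cxcl10 (chr5:92348963-92349122, minus strand): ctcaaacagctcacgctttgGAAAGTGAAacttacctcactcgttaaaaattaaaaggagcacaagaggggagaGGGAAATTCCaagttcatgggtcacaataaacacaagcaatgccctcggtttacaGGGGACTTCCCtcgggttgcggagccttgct
In Cxcl1 the capitals are overlapping NF-kB matches on the opposite strands that begin 71 bases before the start of the gene. In Cxcl9 they are an IRF match that begins 175 bases before it. Cxcl10 holds an IRF match that begins 213 bases before the start, then an NF-kB match at 159 and an overlapping pair at 104. In the 250 bases before the start, the NF-kB consensus was found in 14.7% of the 34 members called higher that have a promoter in the RefSeq table, and in 7.01% of 27025 promoters. The IRF motif GAAANNGAA was found in 14.7% against 7.16%, and the STAT motif TTCNNNGAA in 11.8% against 7.18%. ACGTG, the core of the hypoxia response element, was found in 11.8% of those members and 16.6% of all promoters. These counts of 4 or 5 genes describe letters in a window, not binding.

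Chemokine receptor genes of the Ccr, Cxcr, Cx3cr and Xcr series are not analysed here. The ligand of Cx3cr1, Cx3cl1, had 1 read in all tumour and 2 in all normal areas. Signalling below the receptors was covered by a list of 25 genes, of which 21 were tested, 17 called higher and 3 lower. Among all tested genes, 39.3% were called higher and 35.3% lower. Rac2, a GTPase of leukocytes (4.43 ± 0.39), Itgal, the integrin chain that binds ICAM (4.11 ± 0.24), and the myeloid kinase Fgr (4.01 ± 0.23) had the largest increases. All normal areas together held 10 reads of Rac2. The G protein subunits Gnai3 (-1.33 ± 0.11) and Gnai1 (-0.73 ± 0.10) and the exchange factor Dock8 (-0.20 ± 0.08) were lower, Dock8 with overlapping groups and not called under several other settings. Of 10 listed genes for chemokine scavenging and atypical receptors, only 2 were in the table, neither of them an Ackr receptor. Dpp4, a peptidase that trims chemokines, rose by 0.70 ± 0.14 and Pitpnm3 fell (-0.74 ± 0.10).

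In the IL-1 system, the ligand Il1b rose and the accessory receptor chain Il1rap fell. Il1b, the inflammatory cytokine released after cleavage by caspase 1, was measured at 32.3, 24.3, 22.5, 16.1 and 29.2 CPM in tumour and 1.08, 0.818, 0.664 and 0.405 CPM in normal areas (5.03 ± 0.30, adjusted p = 2.94e-07 in edgeR). R4 was the lowest tumour area and still lay far above L1, the highest normal area. Il1a, the alarmin of the same receptor, had 12, 8, 2, 3 and 2 reads in the tumour areas and none in the normal areas. Against 3 counts set as the floor over the normal group this was 6.42-fold, with the tumour counts taken as exact. The receptor Il1r1 was too low to test, with 3, 2, 1, 1 and 2 reads in tumour and 5, 7, 3 and 3 in normal areas, all tumour areas lying below all normal areas in CPM. Its partner chain Il1rap fell from 35.7, 43.9, 40.5 and 40.7 CPM in normal to 32.9, 22, 21.4, 26.1 and 27.8 CPM in tumour areas (-0.62 ± 0.13, adjusted p = 0.00131). L4 was the tumour area nearest to the normal ones, and with library size alone as the scaling the gene was not called. Il1r2, the decoy receptor, and Il1rn, the natural antagonist, had no read in any library.

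The ligand Il18, its antagonist and both of its receptor chains rose. Il18, an epithelial and macrophage cytokine that induces interferon gamma, stood at 9.33, 5.2, 4.9, 5.95 and 7 CPM in tumour and 2.38, 3.41, 2.66 and 1.01 CPM in normal areas (1.41 ± 0.31, adjusted p = 0.00176 in edgeR). Il18bp, its soluble neutraliser and an interferon target, stood at 26, 21, 19.8, 17.4 and 27.1 against 7.79, 8.18, 8.64 and 7.69 CPM (1.46 ± 0.15, adjusted p = 1.02e-05). Neither gene overlapped between the groups. The receptor chain Il18r1 came to 30.6, 19.3, 15.1, 13.4 and 24.5 CPM in tumour and 3.25, 1.77, 0.997 and 2.02 CPM in normal areas (3.39 ± 0.35, adjusted p = 1.02e-05). The accessory chain Il18rap came to 27.3, 17.6, 16.3, 17.3 and 27.7 against 2.81, 3.41, 3.16 and 4.66 CPM (2.60 ± 0.24, adjusted p = 4.44e-06). L4 and R5 were the high tumour areas for both chains. Il1rl2, the receptor for the IL-36 cytokines, was called with overlapping groups (6.24 to 15 against 3.44 to 6.92 CPM, 1.14 ± 0.31). Its ligand Il1f9 had 1, 1, 2, 2 and 2 reads in tumour and none in normal areas. Against 3 counts over the normal group this was 1.9-fold. The receptor Il1rl1 for IL-33 had 24, 3, 10, 3 and 25 reads in tumour areas and 2 in all normal areas, a ratio of 23.2 (95% exact interval 6.17 to 196, counting error only). Il33 itself had 3, 3, 1, 2 and 5 reads in tumour and 1, 3, 2 and 0 in normal areas. Of 22 further genes of IL-1 receptor and Toll signalling, 9 were in the table and 5 tested. Casp1, which encodes the protease that matures IL-1 beta and IL-18, was the only one called, at 3.92 ± 0.59. It had 32, 16, 15, 16 and 38 reads in tumour and 1, 0, 1 and 3 in normal areas. Casp1 thus entered the test through the tumour areas. Among all tested genes, 74.6% were called in either direction.

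**Figure D3:**
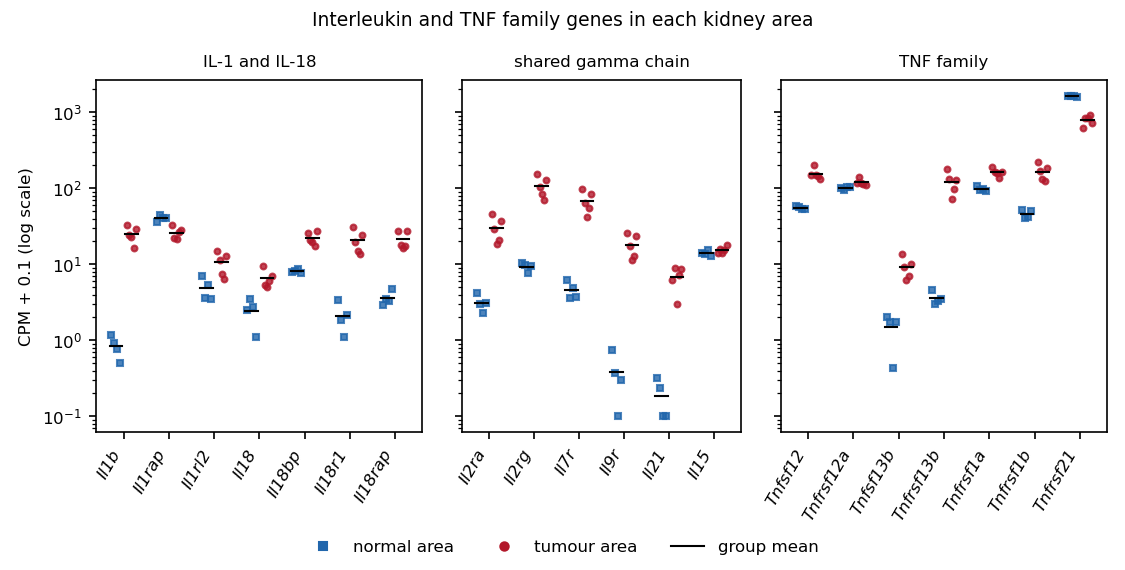
CPM plus 0.1 on a log axis of interleukin, interleukin receptor and TNF family genes in each tumour area (circles) and normal area (squares), with black bars at group means. Il1b, Il7r, Il9r and Tnfrsf13b are separated widely, Il15 overlaps, and Il1rap and Tnfrsf21 lie lower in tumour.

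The 4 tested receptor chains of the common gamma family, which T, B and natural killer cells use, were higher. Il2rg, the shared gamma chain, was measured at 154, 105, 83.3, 69.6 and 127 CPM in tumour and 10.2, 9.82, 7.64 and 9.31 CPM in normal areas (3.55 ± 0.25, adjusted p = 8.04e-07 in edgeR). Il7r, the IL-7 receptor of T cells and innate lymphoid cells, reached 98.7, 63.1, 41.9, 54.9 and 84.9 CPM in tumour and 6.06, 3.55, 4.82 and 3.64 CPM in normal areas (3.94 ± 0.30, adjusted p = 1.16e-06). In both genes L4 was highest and R5 next. Il2ra, the high-affinity IL-2 chain of activated and regulatory T cells, stood at 46.2, 29, 18.2, 21.1 and 36.8 against 4.11, 2.86, 2.16 and 3.04 CPM (3.33 ± 0.33, adjusted p = 7.40e-06). Il9r, the receptor of IL-9, stood at 25.5, 17.1, 11.3, 12.9 and 23.7 against 0.649, 0.273, 0 and 0.202 CPM (6.00 ± 0.50, adjusted p = 2.22e-06). Normal areas held 6 Il9r reads in all, and without normal L1 the difference was 6.63. Of the ligands, Il21, made by follicular helper T cells, had 44, 53, 16, 49 and 57 reads in the tumour areas and 2 in all normal areas, a ratio of 78.1 (95% exact interval 21.4 to 649). R3 held the fewest of these reads. Il2 had 3, 3, 1, 1 and 2 reads in the tumour areas and none in normal areas, 2.38-fold against 3 counts over the normal group. Il15, which many tissue cells make, stood at 13.8, 15.6, 13.8, 15.2 and 18 CPM in tumour and 13.8, 13.4, 15.1 and 12.8 CPM in normal areas (0.15 ± 0.11, adjusted p = 0.25), so the groups overlapped. Il15ra was too low to test, with 11, 16, 6, 9 and 10 reads in tumour and 5, 12, 8 and 7 in normal areas, and Il9 had none. T and NK cell markers summed to 199.5 to 483 CPM in tumour and 67.3 to 70.9 CPM in normal areas, with 13 of 17 detected and Lck, Zap70, Cd2 and Ncr1 at 0. Gata3, which did not pass (0.52 ± 0.39), made up most of the normal sum (31.7 to 167 against 52.4 to 55.9 CPM). The other 7 tested markers were higher, among them Cd4 (57.5 to 141 against 2.82 to 4.64 CPM, 4.72 ± 0.32) and Cd3e (40.3 to 102 against 2.33 to 4.36 CPM, 4.19 ± 0.36). Nkg7 and Cd3d, also among them, had under 10 counts in every normal area and entered the test through the tumour areas. The part of T and NK cells in these receptor values was not tested.

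Of the IL-12 and IL-27 receptor family, Il27ra and Il12rb1 were tested and both were higher. Il27ra, found on T and NK cells, was measured at 43.4, 25.2, 19.4, 17.9 and 39.9 CPM in tumour and 4.76, 2.18, 2.16 and 1.82 CPM in normal areas (3.45 ± 0.39, adjusted p = 1.73e-05 in edgeR). Il12rb1, the chain shared by the IL-12 and IL-23 receptors, stood at 12, 7.22, 5.63, 6.1 and 7.76 against 1.51, 1.64, 0.83 and 1.21 CPM (2.56 ± 0.30, adjusted p = 2.59e-05). Neither overlapped between the groups. The chains that pair with Il12rb1, namely Il12rb2 (29 reads in tumour and 11 in normal areas) and Il23r (12 and 3), were too low to test and overlapped between the groups. The ligands were sparse: Il27 had 22 reads in tumour and 2 in normal areas, Il12b 7 and 1, and Il12a none. Il23a had 5, 7, 4, 4 and 6 reads in tumour areas and 1, 1, 2 and 1 in normal areas, without overlap in CPM. Il10, the anti-inflammatory interleukin, had 24, 13, 8, 7 and 17 reads in tumour and 1 in all normal areas, a ratio of 49.2 (95% exact interval 8.55 to 1973). Its receptor genes Il10ra and Il10rb are listed at 0 in every library.

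Receptors of the IL-17, IL-6 and beta common families moved in both directions. Il17rb, the receptor of IL-25, ranged over 5.71 to 9.73 CPM in tumour and 1.3 to 2.83 CPM in normal areas (1.93 ± 0.28, adjusted p = 0.000117 in edgeR). Il17re (0.84 ± 0.32) and Il17rc (0.44 ± 0.17), chains of epithelial IL-17C and IL-17A receptors, were called with overlapping groups, and each lost its call when some areas were left out. Il17rd, which restrains growth factor signalling, fell from 62.7, 59.3, 52.3 and 60.7 CPM in normal to 42, 35.1, 44.7, 35.4 and 36.5 CPM in tumour areas (-0.60 ± 0.09, adjusted p = 0.000189). Il6ra, the IL-6 receptor, ranged over 32.5 to 68.2 against 25.1 to 34.2 CPM (0.71 ± 0.21), with R4 among the normal areas. Il13ra1, a chain of the IL-4 and IL-13 receptor, fell from 315, 329.5, 331 and 309.7 CPM in normal to 271, 225, 249, 243 and 246 CPM in tumour areas (-0.38 ± 0.06, adjusted p = 0.000149). This small decrease had no overlap between the groups, though with library size alone it was not called. Il5ra, the IL-5 receptor of eosinophils, fell from 6.92, 9.27, 11.5 and 9.72 CPM in normal to 3.34, 3.52, 4.36, 5.52 and 4.11 CPM in tumour areas (-1.17 ± 0.19, adjusted p = 0.00029). Il3ra had 23, 20, 8, 8 and 16 reads in tumour areas and 2 in all normal areas, a ratio of 26.8 (95% exact interval 7.15 to 225). Il3, Il5 and Il22 had no read, and Il13 had 0, 0, 1, 2 and 2 in tumour and none in normal areas. Il34, a ligand of the macrophage receptor Csf1r, had 2, 2, 4, 2 and 1 reads in tumour and 2, 2, 2 and 1 in normal areas. Csf1r stood at 15.7 to 22.7 against 13.3 to 20.8 CPM and did not pass the test (0.32 ± 0.16, adjusted p = 0.0974), although a few of the alternatives called it, among them library size alone (0.61).

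Of the TNF ligands, 2 were tested and both were higher. Tnfsf13b, the B cell survival factor BAFF, stood at 13.6, 9.23, 6.17, 6.83 and 9.89 CPM in tumour and 1.95, 1.64, 0.332 and 1.62 CPM in normal areas (2.74 ± 0.39, adjusted p = 8.97e-05 in edgeR). Its receptor Tnfrsf13b (TACI), carried by B and plasma cells, stood at 180.1, 130.4, 71.9, 96.3 and 129 CPM in tumour and 4.54, 2.86, 3.16 and 3.44 CPM in normal areas (5.14 ± 0.32, adjusted p = 3.46e-07). The largest difference of any TNF receptor was this one, and R3 and R4 were its low tumour areas. Another BAFF receptor, Tnfrsf13c, and the related ligand Tnfsf13 had no read in any library. Tnfsf12 (TWEAK), made by macrophages and many other cells, stood at 151, 204, 148, 147 and 130.4 against 57.6, 55.9, 53.5 and 53.2 CPM (1.5 ± 0.12, adjusted p = 1.55e-06). Its receptor Tnfrsf12a (Fn14), which injured epithelium expresses, stood at 116, 141, 115, 115 and 109 against 101, 95.7, 103 and 103 CPM (0.25 ± 0.07, adjusted p = 0.0112). R2 was the highest tumour area for ligand and receptor, and the receptor difference was a small one that was not called with the R areas alone. The readthrough gene Tnfsfm13 shares exons with Tnfsf12, so reads of the pair are uncertain, and it had 42 reads of its own in tumour and 16 in normal areas. Tnfsf10, the ligand TRAIL, had 2, 4, 3, 1 and 0 reads in tumour and 3, 1, 3 and 0 in normal areas, and Tnf itself is not analysed here.

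The receptors of TNF were higher, and the death domain receptor Tnfrsf21 was lower. Tnfrsf1a, which most cells carry, was measured at 191, 162, 159, 134 and 163 CPM in tumour and 106, 95.7, 97.2 and 91.3 CPM in normal areas (0.73 ± 0.09, adjusted p = 3.96e-05 in edgeR). Tnfrsf1b, the inducible receptor of leukocytes and endothelium, stood at 221, 169.8, 130.3, 124 and 182 against 51.5, 40.6, 41.7 and 50.4 CPM (1.85 ± 0.18, adjusted p = 5.49e-06). Both genes were separated between the groups, Tnfrsf1b by the wider margin on the log2 scale. The death receptor Tnfrsf10b for TRAIL stood at 39, 24.8, 27.8, 21.8 and 26.5 against 14.7, 13.9, 12.8 and 13 CPM (1.04 ± 0.16). Tnfrsf26 stood at 19.5, 11.2, 7.81, 8.28 and 13.8 against 6.27, 6.96, 6.48 and 7.69 CPM (0.83 ± 0.27, adjusted p = 0.0166). Tnfrsf14 (HVEM), a co-signalling receptor of lymphocytes, stood at 2.37, 2.35, 1.45, 2.47 and 1.67 against 0.865, 0.818, 0.332 and 0.81 CPM (1.54 ± 0.32, adjusted p = 0.00118). The normal levels of Tnfrsf14 rested on 16 reads. Tnfrsf19 (TROY) rose with a wide error: 29.2, 1.51, 3.99, 2.03 and 7.76 CPM in tumour against 1.3, 1.09, 0.664 and 0.607 CPM in normal areas (3.28 ± 1.00, adjusted p = 0.0126). L4 stood far above the other tumour areas, and R2 lay close to the normal values. The Tnfrsf19 difference was 2.04 without L4 and 1.41 without L4 and R5. Tnfrsf11b, the decoy osteoprotegerin, ranged over 2.9 to 7 against 1.51 to 3.65 CPM and just missed the threshold (0.82 ± 0.34, adjusted p = 0.0501). Tnfrsf21 (DR6) fell from 1621, 1628, 1632 and 1592 CPM in normal to 612, 839.9, 830.4, 909.9 and 728 CPM in tumour areas (-1.05 ± 0.10, adjusted p = 7.73e-06). L4 was its lowest tumour area and R4 its highest, and the groups did not overlap. Tnfrsf8 (CD30) had 2, 2, 1, 7 and 3 reads in tumour and none in normal areas, 3.57-fold against 3 counts over the normal group.

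TNF-induced proteins did not move as a group. Tnfaip8, an inhibitor of apoptosis, fell from 58.2, 65.7, 61.5 and 63.6 CPM in normal to 12.7, 7.89, 12.3, 15.8 and 12.9 CPM in tumour areas (-2.33 ± 0.15, adjusted p = 4.99e-07 in edgeR), the largest decrease among the tested members. Tnfaip1, an adaptor of a ubiquitin ligase, rose slightly from 368, 362, 367 and 372 to 439.7, 502, 442, 442 and 412 CPM (0.28 ± 0.06, adjusted p = 0.00143). Tnfaip2, an NF-kB target of endothelium and myeloid cells, stood at 43.4, 19.5, 38.3, 29.3 and 35.9 against 21.2, 24.5, 22.8 and 24.7 CPM (0.51 ± 0.20, adjusted p = 0.0375). Its tumour area R2 lay below all normal areas, and the call was lost when any of several areas was left out. Tnfaip3, the ubiquitin-editing brake on NF-kB, had no read in any library. Tnfaip6, a hyaluronan-binding protein of inflamed stroma, had 6, 6, 8, 4 and 9 reads in tumour areas and 2 in all normal areas, a ratio of 11.8 (95% exact interval 3.01 to 101).

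Genes that act below these receptors were counted from the same fit, in which 39.3% of all tested genes were called higher and 35.3% lower. All 7 tested NF-kB subunits and inhibitors were higher, led by Bcl3 (2.56 ± 0.29), Nfkbiz (2.42 ± 0.33) and Nfkbie (2.40 ± 0.16), nuclear or cytoplasmic IkB proteins that are themselves NF-kB targets. Of 13 tested TNF receptor adaptors, ligases and kinases, 9 were higher and 2 lower. The necroptosis kinase Ripk3 (3.47 ± 0.41), the adaptor Traf1 (2.25 ± 0.38) and the ubiquitin ligase Birc2 (0.78 ± 0.16) led the increases. All normal areas together held 10 reads of Ripk3 and 12 of Traf1. Ripk1, the partner kinase of Ripk3, fell (-1.09 ± 0.24), and the deubiquitinase Cyld was slightly lower (-0.13 ± 0.05), a call that did not hold under most alternatives. Of 11 tested JAK kinases, STAT factors and SOCS inhibitors, 7 were higher and 3 lower. The phosphatase Ptpn6 (1.23 ± 0.22) and the transcription factor Stat2 (1.18 ± 0.10) were among those higher. Socs7 (-2.32 ± 0.35) and Pias2 (-0.71 ± 0.10), inhibitors of cytokine signalling, were lower, as was Stat5b by a margin (-0.14 ± 0.05) that several alternatives did not call. Among 18 tested cytokines and receptors of the IL-6, CSF and TGF families and other TNF relatives, 13 were higher and 4 lower. Cd27, a TNF receptor of lymphocytes (4.59 ± 0.52), Relt (3.61 ± 0.45) and Tgfb3 (2.55 ± 0.45) had the largest increases. The normal areas together held 9 reads of Cd27 and 8 of Relt, so both entered the test through the tumour areas. The receptors Kit (-0.83 ± 0.07), Lifr (-0.81 ± 0.06) and Tgfbr1 (-0.54 ± 0.05), which tubule or endothelial cells carry, had the largest decreases. Jak3 and Stat3 are listed at 0 in every library.

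The 5 tumour areas were not alike. Of the 44 members called higher, 30 were highest in L4 (68.2%) and 37 were lowest in R3 or R4 (84.1%). Over all 2760 genes called higher, 45.8% were highest in L4 and 59.9% lowest in R3 or R4. The coefficient of variation over the tumour areas had a median of 32.4% in these members and 15.7% in all genes called higher. The median ratio of L4 to R4 was 1.97 and 1.17. Cxcl10 varied least, with a coefficient of variation of 6.22%, followed by Tnfaip1 at 7.35% and Tnfrsf12a at 10.3%. Tnfrsf19 (131%), Ccl11 (88.9%), Cxcl13 (64.9%) and Ccl17 (62.6%) varied most. Leukocyte markers had a like order, with a sum of 964 CPM in L4, 731 in R5, 637 in R2, 511 in R3 and 447 in R4. Markers of urothelium (1240 CPM in L4, 244 in R5, 43.9 to 110 in the other tumour areas, at most 7.09 in normal areas) and of fibroblasts and mural cells (5871 CPM in L4, 3669 in R5, 1962 to 2430 in the others) also had high sums there. Of the 9 fibroblast and mural cell markers, 7 were called higher, each highest in L4. Pdgfra (-1.68 ± 0.15) and Pdgfrb (-0.65 ± 0.18) were called lower, and R2 was their highest tumour area. Fat markers summed to 746 CPM in L4, 163 in R5 and 6.71 to 28.6 in the others. The part of these tissues in the spread of the cytokine genes was not tested. Without L4 and R5, and with the genes of the full test kept, 40 of the 53 members were called higher and 6 lower, beside 38.8% and 36.0% of all 7020 genes. With a new filter, 4 members left the test and 37 were called higher.

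**Figure D4:**
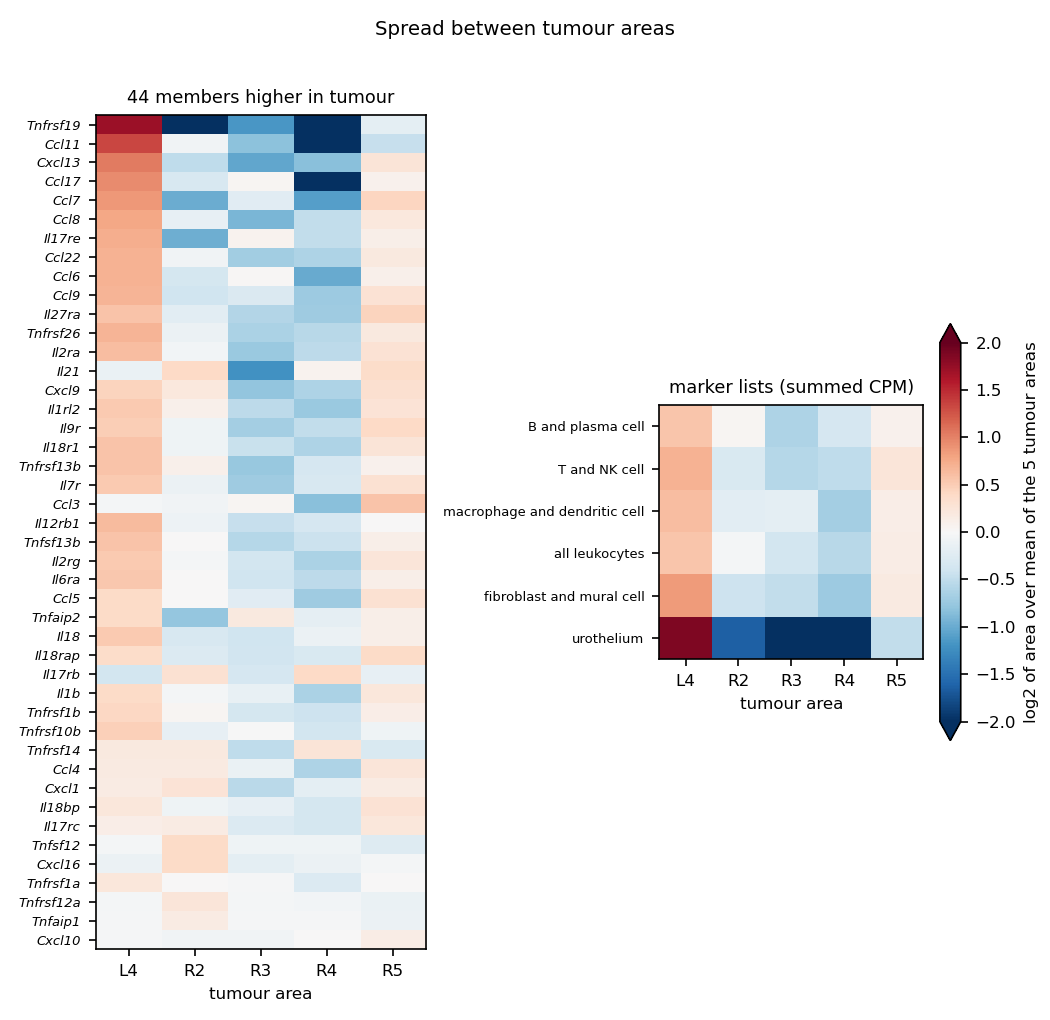
Level of each member called higher in each tumour area relative to its mean over the tumour areas, on a log2 colour scale, with 1 column per area and members in rows by falling coefficient of variation; the smaller panel shows summed markers in the same way, and colours end at 2 and -2. L4 lies highest for 30 of the 44 members and R3 or R4 lowest for 37.

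Among runs of 3 or more neighbouring members, those with tested genes had every tested gene called higher. Higher calls were made for 83.0% of all tested members, so runs of so few genes do not set neighbours apart. On chromosome 11, the run Ccl5, Ccl9, Ccl6, Ccl3 and Ccl4 had all 5 genes tested and higher. The run Ccl7, Ccl11, Ccl12, Ccl8 and Ccl1 on the same chromosome had 3 tested and 3 higher. On chromosome 8, Ccl22 and Ccl17 were higher, with Cx3cl1 between them near 0. On chromosome 1, the receptor run Il1r2, Il1r1, Il1rl2, Il1rl1, Il18r1 and Il18rap had 3 tested and 3 higher. How the counting treated reads that fit more than 1 gene is not given in the sources used here.

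Members under the filter were sparse. The 32 with reads had at most 84 in all libraries together, and 10 of them had every tumour area above every normal area and 1 had every tumour area below. Over all 3043 genes with reads under the filter, 9.23% and 5.16% were so arranged. Of these not yet named with values, Cxcl17, a chemokine of mucosal epithelium, had 19, 5, 16, 4 and 9 reads in tumour areas and 1 in all normal areas, a ratio of 37.8 (95% exact interval 6.5 to 1522). L4 and R3 held most of its reads. Cxcl3, a ligand of Cxcr2, had 7, 0, 4, 1 and 5 reads in tumour areas and none in normal areas. Against 3 counts over the normal group this was 4.04-fold. With no filter on low counts edgeR called 12 of the 32 higher and 1 lower, beside 13.8% and 6.97% of those 3043 genes. DESeq2 called 10 higher of the 25 to which it gave an adjusted p, beside 15.6% of all such genes. In total 28.4% of all genes and 22.7% of the members had no read in any library, and genes that every leukocyte uses, such as Ptprc, were among them, so a 0 is given only as listed.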

How the data were processed

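RNA was sequenced from 5 tumour areas and from 4 areas of normal kidney cortex of mice. Per the labels' protocols, poly(A) RNA went into TruSeq libraries, a kit that does not keep strand. The aligner STAR 2.3, the counter HTSeq, the package edgeR and the build mm9 are listed in the submitters' processing notes without their roles, while no source used here gives the annotation, the strand setting or the treatment of multi-mapping reads. The authors deposited a table of raw read counts with genes in rows and 1 column for each library, checked here to be whole numbers with different totals. No column lacked a sample (0), no replicates were pooled, and 14026 of 14052 identifiers matched a symbol while 26 did not.

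The counts were fitted with edgeR 4.0.16 in R 4.3.3: filterByExpr (minimum count 10, minimum total 15), TMM scaling, a quasi-likelihood test with the group as its only term, and Benjamini-Hochberg adjustment over all 7020 genes tested. Pooled ratios carry 95% exact intervals from binomial counts, which cover counting error only. Folds against 3 counts over the normal group take the tumour counts as exact, so they are not lower limits. Reads are not molecules, since no molecular identifiers were used. Only the edgeR fit was tested on simulated data, in which few genes changed, while 74.6% of tested genes were called here. That run therefore does not test the scaling in such a setting, and the other steps were not simulated. The members and gene lists were chosen with earlier results of these data known. Values in every area are given for called members whose higher group averaged 1 CPM or more, up to 8 per role and direction, for members that did not pass with at least 10 CPM, and for members under the filter that pair with another member or whose groups do not overlap. Of each pathway list, up to 3 called genes per direction are named, except 1 that is not reported here. Other settings tried were scaling by RLE, by the upper quartile or by library size, dropping the filter or asking for 1 CPM in 4 libraries, limma-voom (limma 3.58.1) and DESeq2 1.42.0, a covariate for the area letter, the R areas alone, a run without L4 and R5, and leaving out each area in turn, with a new filter or, added after seeing the data, with the genes of the full test. Promoters came from RefSeq on GRCm38.p6, where 88 of 110 members matched. Overlaps and gene order come from annotations of later builds than mm9 and were used for names only. Tables and figures used Python 3.11.15, pandas 2.3.3 and matplotlib 3.10.9.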

Additional observations from a re-analysis of the deposited data

Results flagged for a closer look

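In 106 groups of areas (tumour and normal areas of 53 tested members), 6 held an area far from the others, by Dixon's test at 95%, where chance flags about 1 group in 20. Tnfrsf19 stood at 29.2 CPM in tumour area L4. In tumour area R2, Tnfsf12 stood at 204 CPM, its receptor Tnfrsf12a at 141 CPM, and Cxcl16 at 74.8 CPM, each above the other tumour areas. Among normal areas, Tnfrsf14 stood low in R1 at 0.332 CPM and Il27ra stood high in L1 at 4.76 CPM.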

How the results depend on the processing

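The count of members called higher, 44 as reported, ran from 37 (without tumour L4, without R5, or without both) to 56 (no filter) over the alternatives. Without these areas Tnfrsf14, Tnfrsf19, Ccl11 and Ccl17 left the test through the filter. With the genes of the full test kept, a choice made after seeing the data, leaving out 1 area gave 41 to 45, and leaving out L4 and R5 gave 40. DESeq2 called 53 higher, limma-voom 41, and the areas with the letter R alone 41. The count called lower, 6 as reported, ran from 4 (library size alone) to 7 (no filter). Of the 53 tested members, 42 kept their direction and their side of the threshold under every alternative that tested them. Library size alone moved the median log2 difference of all genes from 0.06 to 0.35 and the split of all genes from 2760 higher and 2476 lower to 3735 and 1689. Under it, calls for Il13ra1 and Il1rap were lost and Il15 and Tnfrsf11b were called, and Cyld (0.16), Dock8 (0.0905) and Stat5b (0.15) changed sign. Tnfrsf11b was also called with upper quartile factors, without tumour R3 or R4, and, with the genes of the full test, without normal R1. Cxcl14 changed sign without L4 and R5 (-0.0433, or -0.0560 with the genes of the full test), with no call in either run. The calls of Cyld, Dock8 and Stat5b were also lost without several single areas. Il17rc, Il17re and Tnfaip2 each lost their call without several single areas, and Tnfrsf12a and Tnfrsf26 did so with the R areas alone, Tnfrsf26 also without L4 and R5 with those genes kept. DESeq2 did not call Il17rc, and limma-voom did not call Il17re, Tnfaip2 or Tnfrsf19. The cause of these changes was not tested. No paired analysis was possible because the groups share only the label R2, which names areas of different mice. Depth limits the 32 members under the filter, and members at 0 are given only as listed.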
